A study of Mus musculus with 4 samples.

Results

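The 50 protein-coding genes described here were chosen by name for their part in the response to amino acid shortage. In all, 11504 protein-coding genes had a value in at least 1 liver library. Of the 50, Phgdh and Eif2ak1 were not among these, since their loci spanned too little of the transcript. The 50 comprise 15 genes of the ATF4 pathway, 20 cytosolic aminoacyl-tRNA synthetases and 15 mitochondrial ones. Each gene was represented by the assembled transcript loci that overlapped its exons. A value in all 4 libraries, and so a test, was reached by 35 of the 50: 6 ATF4 pathway genes, 18 cytosolic synthetases and 11 mitochondrial synthetases.

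RNA was sequenced from the livers of male wild type mice (2 libraries) and of male mice homozygous for a disrupted hemojuvelin gene, called HJV knockout (2 libraries). All were of the C57BL/6 strain, and no other allele is named. Both genotypes received AIN-93G, a soy-free diet, with an iron content of 2.5 mg per kg; it began at 5 weeks of age, lasted 50 days, and was followed by harvest at 12 weeks. No library analysed here came from mice on a diet with more iron, so the values compare genotypes under iron restriction. Hemojuvelin is a membrane co-receptor for bone morphogenetic proteins that hepatocytes use to drive hepcidin, the hormone that limits iron uptake. The labels do not tie each library to an animal, so p-values measure the spread between these libraries, which may be technical.

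Cells that run short of an amino acid accumulate uncharged tRNA, which activates the kinase GCN2 (gene Eif2ak4). A second kinase, HRI (Eif2ak1), responds to lack of heme and so links iron supply to the same pathway. Both phosphorylate the initiation factor eIF2, which slows protein synthesis overall but favours translation of the mRNA for the transcription factor ATF4. ATF4 then switches on genes for amino acid synthesis and import and for many of the cytosolic aminoacyl-tRNA synthetases, the enzymes that load each tRNA with its amino acid. Mitochondria translate their own genome with a largely separate set of synthetases, most of them encoded by genes whose symbols end in 2.

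Among the promoters, 6 held the core of the C/EBP-ATF response element, through which ATF4 and its partners bind DNA. The motif searched was TGATGNAA on both strands in the 250 bases before the RefSeq transcription start (build GRCm38.p6). The RefSeq table held 41 of the 50 genes. The motif stood in 3 of 15 ATF4 pathway genes, in 3 of 13 cytosolic synthetases and in 0 of 13 mitochondrial synthetases, against 1056 of 27025 genes (3.91%) in the table. A match describes letters and is not evidence of binding. The 6 matches are shown because they mark the members with this element close to the start. Each is a stretch of 60 bases on the strand of its gene, with the 8 bases of the motif in capitals, and a gene on the reverse orientation of the motif shows it as TTNCATCA.
Atf3: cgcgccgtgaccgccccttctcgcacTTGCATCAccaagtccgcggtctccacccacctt
Asns: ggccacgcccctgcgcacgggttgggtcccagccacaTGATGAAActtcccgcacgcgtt
Chac1: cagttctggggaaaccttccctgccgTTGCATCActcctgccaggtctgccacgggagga
Aars: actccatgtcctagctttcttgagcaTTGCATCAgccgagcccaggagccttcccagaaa
Gars: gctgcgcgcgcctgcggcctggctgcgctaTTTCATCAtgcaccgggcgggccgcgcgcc
Tars: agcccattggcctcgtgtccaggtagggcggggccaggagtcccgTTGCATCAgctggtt

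The Atf3 stretch lies at chr1:191183410-191183469 on the minus strand and the Asns stretch at chr6:7693210-7693269 on the minus strand. The Chac1 stretch lies at chr2:119351023-119351082 on the plus strand and the Aars stretch at chr8:111033704-111033763 on the plus strand. The Gars stretch lies at chr6:55037941-55038000 on the plus strand and the Tars stretch at chr15:11399659-11399718 on the minus strand. The motif began 15 bases before the transcription start in Tars, 23 in Asns, 30 in Gars, 110 in Atf3, 112 in Aars and 193 in Chac1.

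The libraries differed in how completely transcripts had been assembled. The wild type libraries (WT1 and WT2 below) held 41541 and 26238 loci, and the knockout libraries (KO1 and KO2) held 56237 and 30190. If the smallest step between the confidence bounds of a locus is 1 fragment, the depths were 86.8, 51.2, 54.9 and 132 M fragments in the same order. KO1 was the most fragmented, with 38.5% of its loci at 150 to 250 bases, against 4.48% to 21.3% in the others. Hepatocyte markers were abundant, and 6 of 8 had loci in all 4 libraries. Their summed levels were 9895 and 9755 scaled FPKM in wild type against 11027 and 11015 in knockout. Of 5 tested hepatocyte markers, 1 was higher and 1 lower without overlap, against 22.3% and 23.8% of all genes. The marker Alb, however, had no locus in any library. The lack of a locus is therefore not a level of 0. The targeted gene Hfe2 (the mouse symbol for hemojuvelin) was at 9.22 and 29.6 scaled FPKM in wild type, over 45.1% and 81.5% of its transcript. It had no locus in KO1 and was at 0.236 over 14.3% in KO2.

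Levels are given throughout as scaled FPKM: fragments per kilobase of transcript, relative to the mapped fragments of the library, divided by a factor that brings the libraries to a common median. Differences are given on the log2(scaled FPKM + 1) scale, knockout minus wild type, which understates the change of genes near 1. In limma with Benjamini-Hochberg adjustment, 0 of the 35 tested members passed an adjusted p of 0.05, as did 0 of all 7926 genes tested (0.0%), where 0.166 was the smallest adjusted p. Unadjusted p-values lay under 0.05 for 5 members: 2 were higher and 3 lower in knockout, against 5.85% of all genes higher and 5.32% lower. With values as deposited, without scaling, the same counts were 6 higher and 1 lower. That setting moved the median difference of all genes from 0.017 to 0.19. KO1 and KO2 were both above WT1 and WT2 for 8 members and both below them for 9, against 22.3% and 23.8% of all genes. The share without overlap, 17 of 35, was thus close to the 46.1% of all genes.

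**Figure D1:**
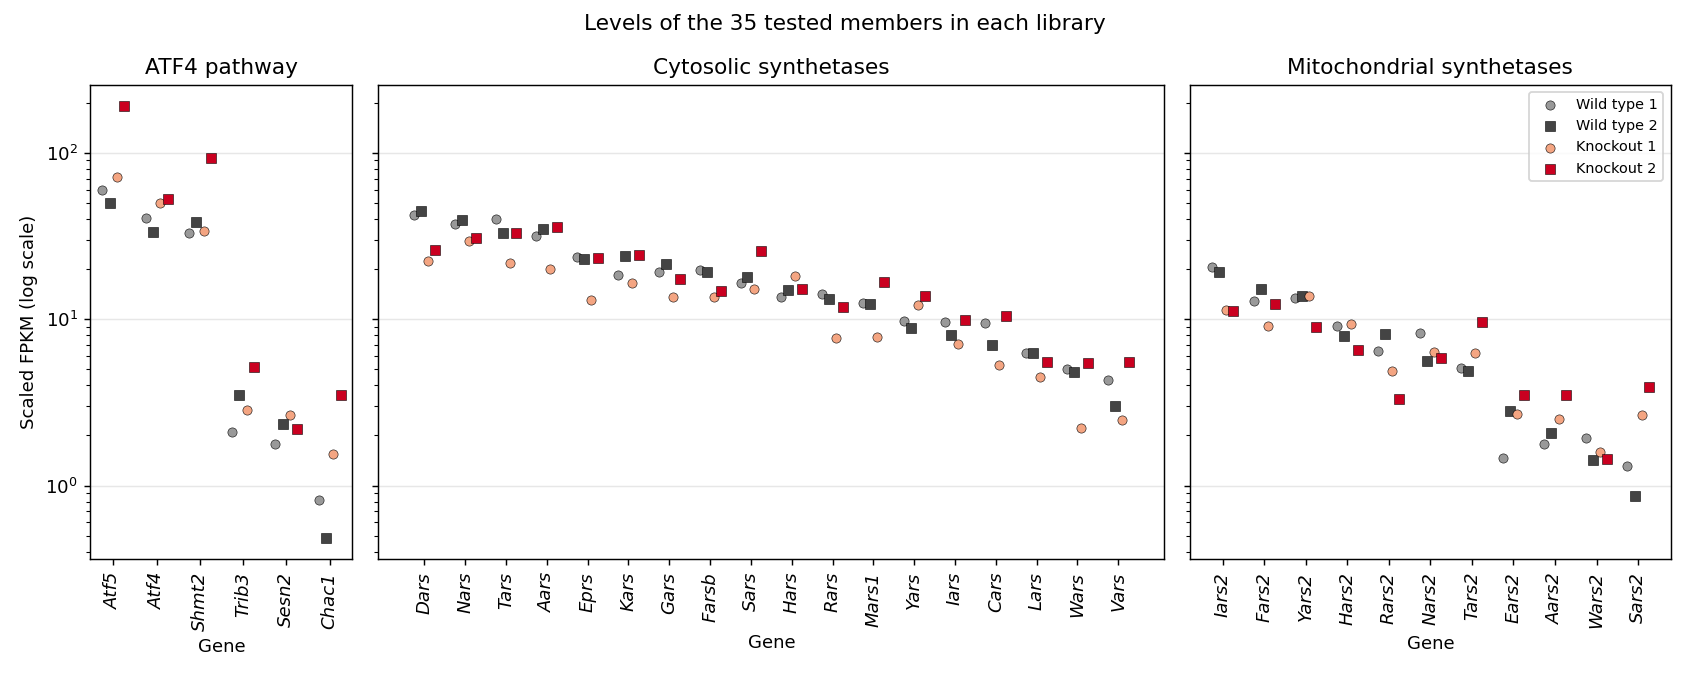
Scaled FPKM (log scale) of the 35 tested genes in each of the 4 libraries, grouped by class and ordered by wild type level; each point is 1 library. Dars and Iars2 show both knockout points below both wild type points, and Chac1 and Sars2 show both above.

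Among the upstream regulators, the mRNA of Atf4 (chr15:80255184-80257541, plus strand), the transcription factor at the centre of the pathway, was abundant in every library. Its level was 40.3 and 33.6 scaled FPKM in wild type against 49.9 and 52.5 in knockout. The groups did not overlap, but the difference of 0.46 was not past the threshold in limma (SE 0.19, adjusted p = 0.463). Atf5, a related factor whose translation is controlled like that of ATF4, stood at 59.99 and 50.02 in wild type against 71.8 and 190 in knockout. Its groups did not overlap either, but the larger part of the difference of 1.08 lay in KO2 (limma, adjusted p = 0.488). Without KO1 the difference of Atf5 was 1.80 with a limma adjusted p of 0.0322, in a fit that called 384 of 8447 genes (4.55%), and without KO2 it was 0.38. After scaling within bins of GC content it was 0.49.

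The kinases upstream of ATF4 could not be tested. Eif2ak4, the sensor of uncharged tRNA, was at 2.10 and 1.79 scaled FPKM in wild type against 3.15 and 1.84 in knockout, and the loci of KO1 fell just short of the span required. Wild type and knockout values overlapped. Eif2ak1, the heme-regulated kinase, was listed at 12.0 and 7.82 in wild type against 1.55 and 0.925 in knockout, from loci spanning only 23.1% to 42.1% of its transcript. These values cannot be compared, since loci over its main body, wholly in knockout and in part in wild type, also held exons of a neighbouring gene and were left out. Taken with them, the main body was at 15.1 and 17.4 scaled FPKM on the 2 loci of WT1 and at 15.3 and 17.7 on those of WT2, and on 1 locus each at 16.1 in KO1 and 14.9 in KO2. The knockout loci thus lay close to or within the range of the wild type loci.

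Among the stress factors that act with or after ATF4, Ddit3 (CHOP, a partner of C/EBP factors in prolonged stress) was at 4.77 and 4.05 in wild type and 3.11 in KO1. Its only locus in KO2 was a short one whose FPKM lay far above its own bounds, so it had no usable value there. Atf3, an early stress factor, was at 1.27 and 0.971 in wild type and 0.366 in KO2, and at 5.89 in KO1 from a locus covering 13.9% of the transcript. Trib3, a pseudokinase that restrains ATF4, was at 2.10 and 3.50 in wild type against 2.85 and 5.13 in knockout, with overlapping groups. Sesn2, which restrains mTORC1 when leucine is low, was at 1.79 and 2.34 against 2.65 and 2.20, also with overlap. Neither Trib3 nor Sesn2 separated the genotypes.

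Chac1 (chr2:119351229-119354381, plus strand), which degrades glutathione and carries the response element printed above, was low in every library. Its level was 0.822 and 0.485 scaled FPKM in wild type against 1.55 and 3.49 in knockout. Both knockout values lay above both wild type values, with a ratio of means of 3.86. The difference was 1.04 with an SE of 0.34 and an unadjusted p of 0.0281, and it did not pass the threshold in limma (adjusted p = 0.430). It was 0.59 after scaling within GC bins.

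Asns (chr6:7675169-7693254, minus strand), asparagine synthetase and a standard reporter of the ATF4 response, was assembled in knockout libraries only. No locus touched its exons in either wild type library. It had 7.33 scaled FPKM in KO1, from 2 loci, and 10.5 in KO2, from 1 locus, and the loci spanned its whole transcript. No test and no fold can be given, because a missing locus is not a measured 0.

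The genes of serine and one-carbon metabolism, which ATF4 also controls, mostly lacked a usable value in at least 1 library. Phgdh, the first enzyme of serine synthesis, had a locus only in KO2, at 0.423 scaled FPKM over 20.9% of its transcript. Psat1, the second enzyme, was at 0.853 and 1.01 in wild type, over only 20.6% and 41.2% of its transcript, and at 0.440 in KO2. Its loci in KO1 had FPKM far above their own bounds and gave no usable value. Psph, the last enzyme, was at 1.36 and 2.95 in wild type and 1.55 in KO1, and in KO2 only a locus of its neighbour touched it. Mthfd2, a mitochondrial folate enzyme, was at 0.875 and 1.18 in wild type and 0.580 in KO2. The values given for these 4 genes all lay under 3 scaled FPKM. Shmt2, the mitochondrial serine hydroxymethyltransferase, stood at 33.2 and 38.1 in wild type, 34.1 in KO1 and 92.7 in KO2. The KO1 value averaged 2 unlike loci, at 51.3 and 7.62 scaled FPKM, where each other library had 1 locus. That average was within the wild type range, and KO2 was far above it. Without KO1 the difference of Shmt2 was 1.39.

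Over the 6 tested ATF4 pathway genes the log2 difference ranged from 0.16 to 1.08, with a median of 0.56 against 0.017 over all genes. Groups did not overlap for 3 of the 6, all higher in knockout, against 22.3% of all genes higher without overlap. The median against the wild type mean was 0.32 in KO1 and 1.04 in KO2. The median difference was 0.26 after scaling within GC bins and 0.041 without KO2. The genes tested without KO2 were not the same 6. Chac1 no longer reached 1 FPKM in 2 libraries, and Ddit3 and Psph gained a test. The 6 transcripts tested with all 4 libraries had a median GC content of 57.8%, against 49.4% over all genes. The part of GC content in the difference was not tested.

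**Figure D2:**
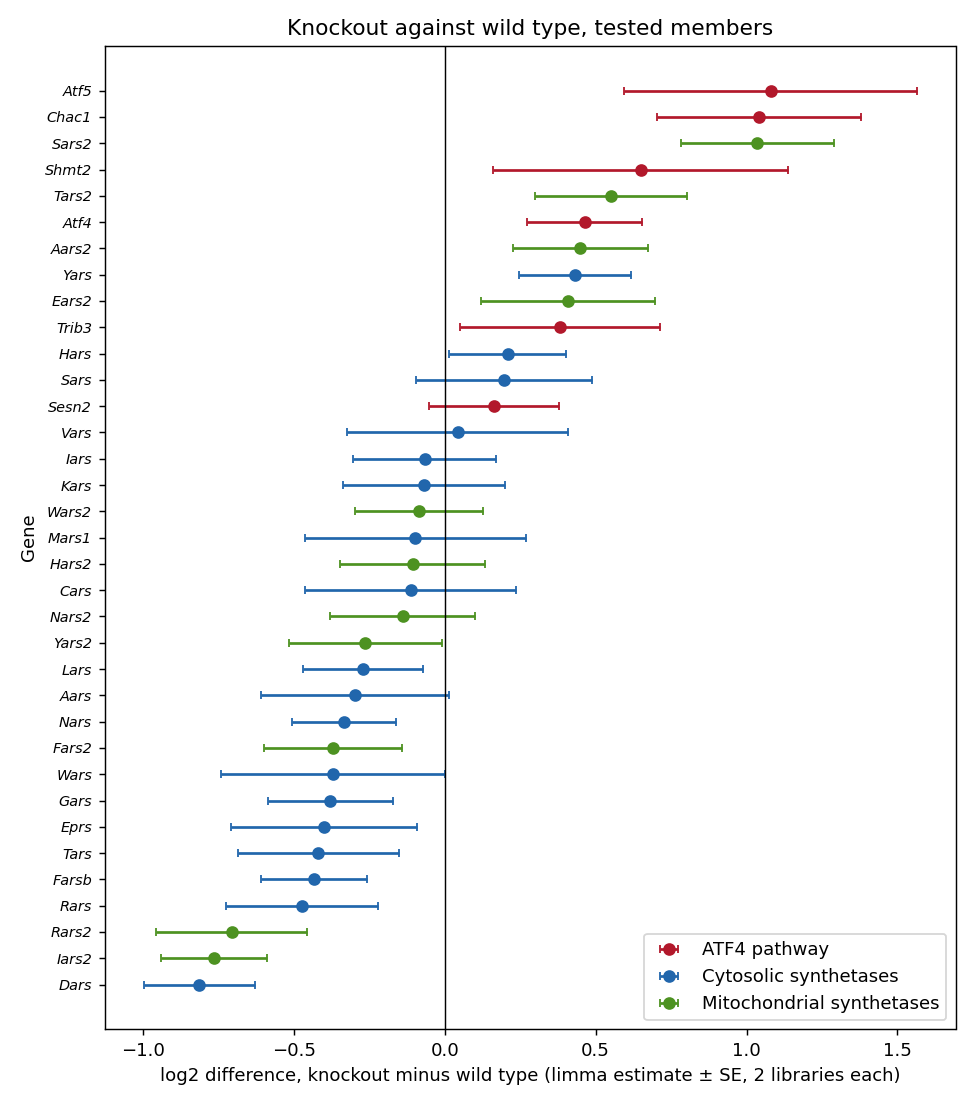
Log2 difference (knockout minus wild type, limma estimate ± SE, 2 libraries each) of the 35 tested genes, coloured by class and ordered by size. ATF4 pathway genes lie between 0.16 and 1.08, and cytosolic synthetases between -0.81 and 0.43.

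The 18 tested cytosolic synthetases were expressed at 2.21 to 44.6 scaled FPKM across the 4 libraries. Among these 18, the most abundant in wild type were Dars, Nars, Tars and Aars, which charge aspartate, asparagine, threonine and alanine tRNAs, and the least abundant were Lars, Wars and Vars, for leucine, tryptophan and valine. Their median difference was -0.28, with 14 of 18 below 0. Groups did not overlap for 8 of the 18, close to the 46.1% of all genes. Of these 8, 2 were higher in knockout (Hars and Yars) and 6 lower (Dars, Farsb, Gars, Lars, Nars and Rars).

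Dars (chr1:128363707-128417368, minus strand), the aspartyl-tRNA synthetase, had the lowest p among all members. Its level was 42.0 and 44.6 scaled FPKM in wild type against 22.5 and 26.1 in knockout. Knockout libraries had 0.560 times the wild type mean, and the groups were separated by more than the spread within either. The difference was -0.81 with an SE of 0.18 and an unadjusted p of 0.00742, and it did not pass the threshold in limma (adjusted p = 0.401). Over all alternatives it ranged from -0.92 to -0.61.

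The other cytosolic synthetases without overlap differed less. Nars, the asparaginyl enzyme, was at 37.5 and 39.3 against 29.6 and 30.9, and Farsb, the beta subunit of the phenylalanyl enzyme, at 19.9 and 19.3 against 13.7 and 14.8. Gars, the glycyl enzyme and a carrier of the response element, was at 19.1 and 21.3 against 13.5 and 17.3. In these 3 both knockout libraries lay below both of wild type. Rars, the arginyl enzyme, was at 14.1 and 13.2 against 7.72 and 11.8, and Lars, a leucine sensor of mTORC1 as well as a synthetase, at 6.23 and 6.24 against 4.49 and 5.55. Yars, the tyrosyl enzyme, went the other way, with 9.80 and 8.90 in wild type against 12.2 and 13.7 in knockout. Hars, the histidyl enzyme, was at 13.6 and 14.9 against 18.2 and 15.1. All of these had adjusted p of 0.459 or more in limma.

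For most of the remaining cytosolic synthetases KO1 was low and KO2 was not. Tars, with the response element beginning 15 bases before its start, was at 40.02 and 32.9 in wild type, 21.8 in KO1 and 33.1 in KO2. Aars, also with the element, was at 31.7 and 34.8 in wild type against 20.1 and 35.8 in knockout. Eprs, the fused glutamyl-prolyl enzyme, was at 23.7 and 22.9 in wild type against 12.97 and 23.3 in knockout. In each of these 3, KO1 was below both wild type libraries and KO2 was within or just above their range. In Wars (5.00 and 4.79 against 2.21 and 5.47) and Mars1 (12.4 and 12.4 against 7.85 and 16.7), KO1 was below and KO2 above both wild type libraries. Sars, the seryl enzyme, was at 16.5 and 17.95 in wild type against 15.2 and 25.8 in knockout. Cars, Iars, Kars and Vars, for cysteine, isoleucine, lysine and valine, had overlapping groups and differences between -0.11 and 0.043.

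Counted over the class, KO1 lay below both wild type libraries for 16 of the 18 cytosolic synthetases, against 38.3% of all genes. KO2 lay below both for 6 of 18 (41.1% of all genes) and above both for 10 of 18 (39.7%). KO1 was below KO2 for 17 of 18, or 94.4%, against 50.4% of all genes and 5 of 11 mitochondrial synthetases. The class median against the wild type mean was -0.51 in KO1 and 0.093 in KO2. After scaling within GC bins these medians were -0.54 and 0.0038, and 17 of 18 were lower in KO1 than in KO2. With values as deposited the first median was -0.17 and 12 of 18 were lower, against 29.2% of all genes. The lower class median in knockout thus rests on 1 library, and without KO1, where Farsa was tested too, it was 0.13. That library was also the most fragmented, and the part of fragmentation in these values was not tested.

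**Figure D3:**
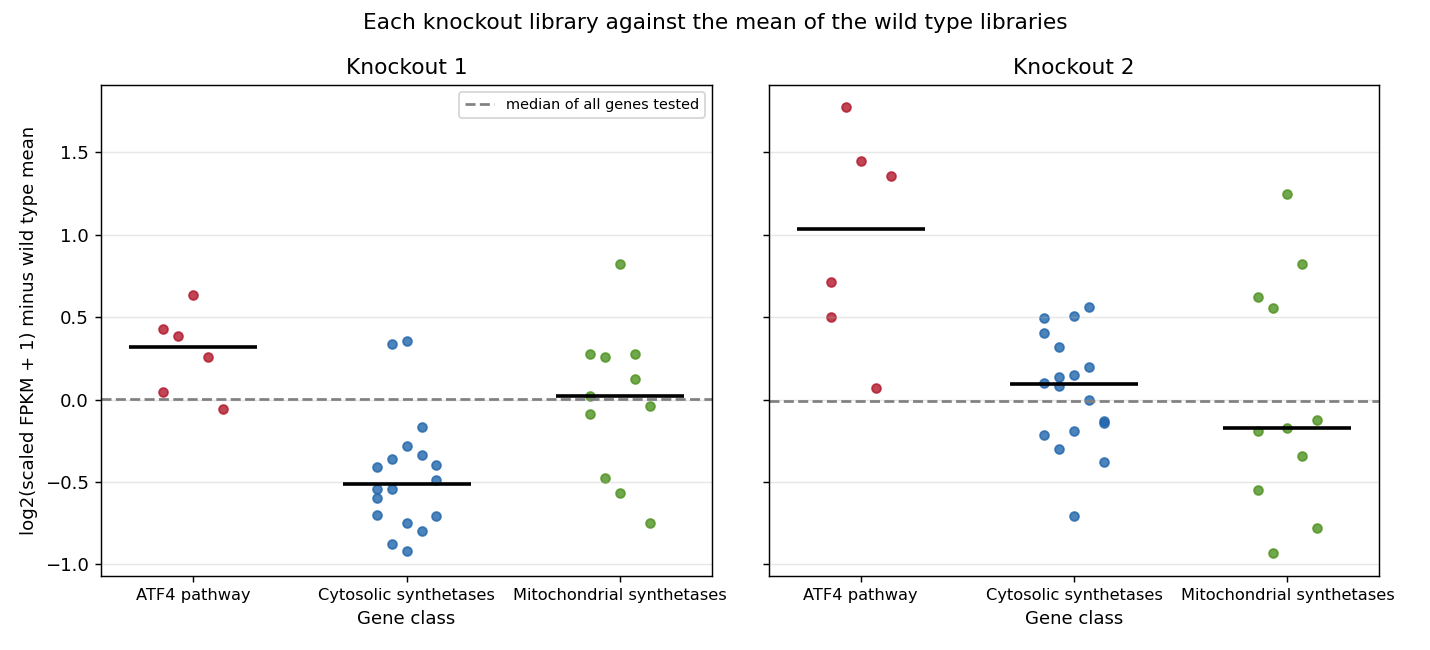
Log2(scaled FPKM + 1) of each tested gene in 1 knockout library minus the mean of the wild type libraries, by class; thick lines are class medians and the dashed line is the median of all genes. Cytosolic synthetases have medians of -0.51 in KO1 and 0.093 in KO2.

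The 2 cytosolic synthetases without a test were Farsa and Qars. Farsa, the alpha subunit that pairs with Farsb, was at 3.83 and 6.12 in wild type, 8.66 in KO1 over 49.1% of its transcript, and 15.6 in KO2. Both knockout values were above both wild type values, the opposite of Farsb, although the subunits form 1 enzyme. Qars, the glutaminyl enzyme, was at 10.1 and 14.8 in wild type and 9.49 in KO1, and in KO2 it was merged into a locus of 9.36 FPKM with the adjacent gene Qrich1.

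The 11 tested mitochondrial synthetases were expressed at 0.861 to 20.6 scaled FPKM and had a median difference of -0.11. Groups did not overlap for 6 of these 11, against 46.1% of all genes. Of these 6, 3 were higher (Aars2, Sars2 and Tars2) and 3 lower (Fars2, Iars2 and Rars2). The class median against the wild type mean was 0.025 in KO1 and -0.17 in KO2. It was 0.048 with values as deposited and ranged from -0.23 to 0.051 with 1 library left out.

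Sars2 (chr7:28741992-28753871, plus strand), which charges mitochondrial serine tRNA, was at 1.31 and 0.861 scaled FPKM in wild type against 2.67 and 3.92 in knockout. Both knockout values lay above both wild type values, with a ratio of means of 3.04. The difference was 1.04 with an SE of 0.25 and an unadjusted p of 0.00992, and it did not pass the threshold in limma (adjusted p = 0.401). After scaling within GC bins it was 0.45, and the GC content of its transcript was 60.1%. Tars2, the threonyl enzyme, was at 5.12 and 4.88 in wild type against 6.26 and 9.62 in knockout, a ratio of means of 1.59. Aars2, the alanyl enzyme, was at 1.77 and 2.06 against 2.53 and 3.49, a ratio of 1.57. The sign of Aars2 turned with the setting: its difference of 0.45 became -0.14 after scaling within GC bins and -0.18 when the highest locus stood for the gene.

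Iars2 (chr1:185284726-185329396, minus strand), the isoleucyl enzyme, was the most abundant tested mitochondrial synthetase in wild type. It was at 20.6 and 19.2 scaled FPKM there and at 11.4 and 11.1 in knockout, so the averages were close within each genotype. The KO1 average, however, joined a locus at 22.7, above both wild type values, and a longer one at 9.70. Loci near the 3' end, at 7.95 in WT2 and 2.38 in KO1, overlapped a neighbouring gene and were left out. The single loci of WT1 and KO2 covered that end. The difference was -0.76 with an SE of 0.17 and an unadjusted p of 0.00773, and it did not pass the threshold in limma (adjusted p = 0.401). With the highest locus for each gene the difference was -0.30. Rars2, the arginyl enzyme (chr4:34614957-34660167, plus strand), was at 6.40 and 8.09 in wild type against 4.89 and 3.30 in knockout. Its averages joined unlike loci, which overlapped between the genotypes. Its loci were at 7.61 and 3.89 in WT1 and at 6.89 and 10.9 in WT2. In knockout they were at 2.78, 8.72 and 8.56 in KO1 and at 3.01 and 4.32 in KO2. Its difference was -0.71 with an SE of 0.25 and an unadjusted p of 0.0384 (limma, adjusted p = 0.440). Fars2, the phenylalanyl enzyme, was at 12.8 and 15.2 against 9.09 and 12.3. Its KO2 average joined a long locus at 14.7, within the wild type range, and a short one at 0.167.

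The other mitochondrial synthetases with a test had overlapping groups. Yars2, the tyrosyl enzyme, was at 13.3 and 13.9 in wild type against 13.8 and 8.97 in knockout, and Hars2, the histidyl enzyme, at 9.13 and 7.90 against 9.37 and 6.50. Ears2, the glutamyl enzyme, was at 1.47 and 2.80 against 2.67 and 3.51. Nars2 and Wars2, for asparagine and tryptophan, had differences of -0.14 and -0.083. KO1 was the lower knockout library for 5 of the 11 tested genes of this class.

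Of the 4 mitochondrial synthetases without a test, Lars2, the leucyl enzyme, had an unusual profile along the gene. The locus over its last exon, mostly untranslated sequence, had 2201 and 1302 scaled FPKM in wild type against 2327 and 1476 in knockout. The other Lars2 loci with a usable value, all in knockout libraries, had 1.03 to 3.52. A gene-wide level for Lars2 therefore could not be stated, and wild type and knockout overlapped at the last exon. Vars2, the valyl enzyme, was at 1.94 and 1.54 in wild type, 5.33 over 49.1% of its transcript in KO1 and 3.20 in KO2, so both knockout values were higher. Pars2 and Mars2, the prolyl and methionyl enzymes, had values between 0.550 and 3.25 with too short a span in at least 1 library.

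Setting each cytosolic enzyme against the mitochondrial enzyme for the same amino acid largely removes a factor that acts alike on all genes of a library. It does not remove a factor that varies with the GC content of the transcript. Of 15 pairs, 11 had both genes tested. The log2 ratio of cytosolic over mitochondrial was lower in both knockout libraries than in both wild type libraries for 4 pairs, higher for 3 and overlapping for 4. For single genes, 46.1% of all did not overlap. No such share was computed for ratios of other gene pairs, so these counts have none to be set beside. For Tars over Tars2 it was 2.75 and 2.53 in wild type against 1.65 and 1.68 in knockout. For Aars over Aars2 it was 3.56 and 3.55 against 2.58 and 3.03. Both ratios were thus lower in each knockout library, as were those of Sars over Sars2 (2.92 and 3.35 against 2.14 and 2.45) and of Eprs over Ears2 (3.32 and 2.65 against 1.93 and 2.43).

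The reverse held for isoleucine, tyrosine and histidine. Iars over Iars2 was -1.01 and -1.16 in wild type against -0.62 and -0.16 in knockout, so the mitochondrial transcript was the more abundant in all 4 libraries and less so in knockout. Yars over Yars2 was -0.41 and -0.59 against -0.17 and 0.56, and Hars over Hars2 was 0.52 and 0.84 against 0.89 and 1.10. In each pair with a lower ratio in knockout, the mitochondrial transcript had the higher GC content. In each pair with a higher ratio, the cytosolic transcript did. Among the overlapping pairs, Nars over Nars2 and Wars over Wars2 went the other way. The part of GC content in these ratios was not tested. Between the 2 classes, the difference of median differences, cytosolic minus mitochondrial, was -0.18. Per library, the same difference of medians was -0.54 in KO1 and 0.26 in KO2, so the knockout libraries disagreed in sign. No common shift of cytosolic against mitochondrial synthetases was therefore measured.

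**Figure D4:**
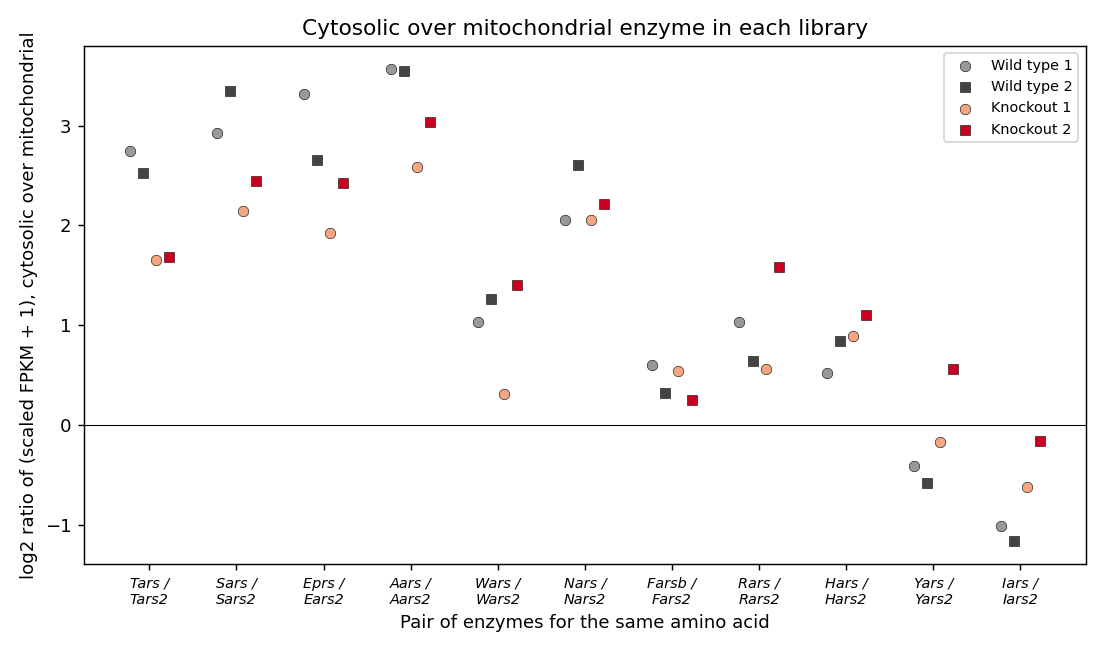
Log2 ratio of (scaled FPKM + 1), cytosolic over mitochondrial enzyme of the same amino acid, for the 11 pairs with both genes tested; each point is 1 library. For Tars over Tars2 the knockout libraries lie at 1.65 and 1.68, below 2.53 and 2.75 in wild type, and for Iars over Iars2 they lie above wild type.

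The differences of the members ran with the GC content of their transcripts. Spearman's rho between GC content and the log2 difference was 0.718 across the 35 tested members and 0.384 across all genes, given without a p because genes of 1 set of libraries are not independent. Dars had the lowest GC content of the tested members, 41.2%, and Atf5 the highest, 61.7%. Between the knockout libraries themselves, rho of log2(KO2 / KO1) with GC content was 0.5003 across members and 0.479 across all genes. After scaling within 20 GC bins, rho across the members was 0.287. The part of GC content in any single difference was not tested.

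**Figure D5:**
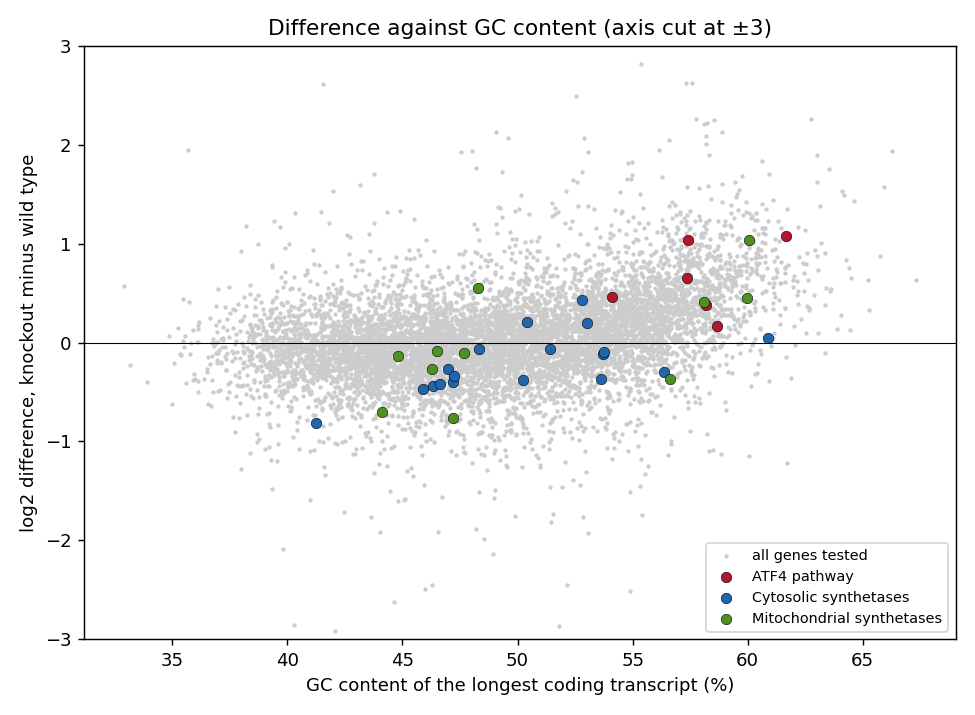
Log2 difference (knockout minus wild type) against GC content of the longest coding transcript for all 7926 genes tested (grey, axis limited to 3 on either side) and the 35 tested members by class. Members above 57% GC lie above 0 and those below 47% lie below 0.

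Genes around the members gave the same mixed picture. Of 34 other genes of ATF4 and the wider stress response, 15 were tested, with a median difference of 0.046. In limma 0 had an unadjusted p under 0.05, against 11.2% of all genes. Without overlap, 2 were higher and 2 lower, against 22.3% and 23.8% of all genes. Slc3a2, the heavy chain of several amino acid exchangers, was at 10.5 and 9.82 in wild type against 12.3 and 14.7 in knockout, and Vldlr, a lipoprotein receptor, at 0.847 and 1.02 against 2.30 and 1.53. Cbs, which starts the conversion of homocysteine to cysteine, was at 28.7 and 45.5 against 41.0 and 139. Slc38a2, a transporter for small neutral amino acids, was at 39.8 and 26.6 against 30.6 and 18.2. As with Atf5 and Shmt2, the high Cbs value was that of KO2.

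Of 18 partners of the synthetases and other genes of tRNA charging, 14 were tested, with a median difference of 0.0049. Without overlap, 3 were higher and 4 lower, against 22.3% and 23.8% of all genes. Eef1d, a subunit of the exchange factor that recycles elongation factor 1A and associates with the valyl-tRNA synthetase, was at 30.5 and 32.9 in wild type against 52.1 and 59.2 in knockout. The groups were far apart, but the difference of 0.79 (SE 0.18) did not pass in limma (adjusted p = 0.401). Eef1b2, another subunit of that factor, was at 181 and 121 against 114 and 112. Gatb, which helps make mitochondrial glutaminyl-tRNA from glutamyl-tRNA, was at 16.2 and 16.1 against 6.84 and 12.7. Dtd1, which removes D-amino acids from tRNA, was at 2.98 and 6.02 against 8.65 and 6.74, and Yrdc, a tRNA modification enzyme, at 11.3 and 8.54 against 4.29 and 8.67.

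Markers of other liver cells did not separate the genotypes uniformly. Summed over markers with a locus in all 4 libraries, Kupffer cell genes were at 133 and 161 scaled FPKM in wild type against 101 and 143 in knockout, with 3 of 7 tested genes lower without overlap and 0 higher. Endothelial genes summed to 61.0 and 77.9 against 75.3 and 80.2, and stellate cell genes to 88.4 and 73.4 against 102 and 87.0. Of the 4 tested stellate genes, 3 were higher without overlap. Over all genes, 23.8% were lower and 22.3% higher without overlap. In limma, 1 of the 7 Kupffer cell genes and 2 of the 4 stellate genes had an unadjusted p under 0.05. The same held for 2 of the 5 tested hepatocyte markers, for 0 of 6 endothelial genes and for 11.2% of all genes. Cholangiocyte genes, 2 of 5, summed to 33.4 and 23.1 against 26.1 and 13.6, and lymphocyte and neutrophil genes, 2 of 7, to 4.72 and 4.59 against 3.87 and 4.35. Among erythroid genes, the globin genes Hba-a1, Hba-a2 and Hbb-bt had no locus in any library. Whether cell composition contributed to any member's difference was not tested, and in whole liver fewer cells of a type cannot be told apart from less RNA per cell.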

How the data were processed

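Liver RNA of 4 libraries, 2 per genotype, was analysed. The deposited values are FPKM with confidence bounds, computed by the authors for loci assembled in each library separately, with coordinates but no gene names, per the file headers. The submitters' processing notes name mm9 as the build and FastQC, TopHat and Cufflinks as tools, giving no versions. The locus coordinates fit GRCm38 instead: 14.2% to 34.3% of long loci ended at a GENCODE M21 gene end, against 0.439% to 0.693% after a shift.

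Loci were given to genes by exonic overlap: at least 50% of a locus had to lie inside the gene, and loci with over 25% as many bases of a second gene, or an FPKM over 3 times the midpoint of their bounds, were left out. Predicted gene models overlapping a named gene (285 of 21951) were dropped. Unusable loci explain why Qars, Psph, Ddit3 and Eif2ak1 lacked a value. For each gene the FPKM of its loci were averaged with exonic bases as weights. The average was used if 50% or more of a coding transcript was spanned, which held for 7949 genes in all 4 libraries. Median-of-ratios scaling followed (factors 0.935, 0.915, 1.20 and 0.955). A gene was tested if 2 or more libraries reached 1 FPKM, which left 7926, and log2(scaled FPKM + 1) was tested two-sided with limma 3.58.1 in R 4.3.3, with trended variances (residual degrees of freedom 2, prior 2.88) and a Benjamini-Hochberg threshold of 0.05. The script was tested on simulated data. An exact permutation test of 2 against 2 cannot give a p under 0.333.

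Values per library were given for tested members with an unadjusted p under 0.05 or without overlap and at least a 1.5-fold ratio of means, and for 9 regulators and enzymes regardless; the other members are given in short form. From the other lists, genes with an unadjusted p under 0.05 and up to 4 more by smallest p were named. The members, lists and alternatives were chosen with earlier results of these data known. Alternatives were other pseudocounts, filters, scalings, locus rules and spans, a replicate block, leaving out each library and, added after the data were seen, scaling within GC bins. Promoter sequences are from RefSeq.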

Additional observations from a re-analysis of the deposited data

How the results depend on the processing

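Adjusted p-values in limma called 0 members, and 0 to 2 with 1 library left out, the 2 being Atf5 and Shmt2 without KO1, where 4.55% of all genes were called. The number of members at an unadjusted p under 0.05 was 5, and 3 under a minimum of 5 FPKM or when the highest locus stood for a gene, 6 with quantile normalization, and 7 with values as deposited, with a 25% span or after scaling within GC bins. It was 0 to 14 with 1 library left out: 1 without WT1, 0 without WT2, 14 without KO1 and 12 without KO2. The shares of all genes were 3.22%, 3.49%, 26.2% and 18.3% in that order, against 11.2% with all libraries. The median difference of cytosolic synthetases ranged from -0.49 to 0.13 with 1 library left out, that of mitochondrial synthetases from -0.23 to 0.051, that of ATF4 pathway genes from 0.041 to 0.69, and the difference between the synthetase classes from -0.51 to 0.26. Without KO1 the difference between the classes was 0.26. The genes tested were not the same in every such fit. Without KO1, Farsa, Vars2 and Eif2ak4 gained a test, and without KO2, Ddit3, Psph and Qars did. Chac1 lost its test in both of these fits. The mitochondrial median was -0.26 under a minimum of 5 FPKM and 0.048 with values as deposited. The difference of Aars2 reversed under 2 alternatives, to -0.14 after scaling within GC bins and to -0.18 when the highest locus stood for the gene. The cause of these changes was not tested. The replicate number as a block left 0 members called and 4 at an unadjusted p under 0.05, with 363 of all genes lower and 488 higher. The labels do not say whether the numbers pair the libraries. Pearson's r of the wild type and knockout deviations was 0.081, so little shift was shared by number, which cannot decide the pairing. With values as deposited, 865 of all genes were higher and 139 lower at an unadjusted p under 0.05, against 464 and 422. Leaving out 1 library assumes that the lone library of a genotype varies like the others. The 15 members without a test had no usable value in at least 1 library.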
